A study of Homo sapiens with 6 samples.

Results

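The 10 integrin subunit genes described here were chosen by name. They are subunits that form receptors for collagen or for fibronectin and other ligands carrying the Arg-Gly-Asp (RGD) sequence. The choice does not hold every such subunit: ITGA11 and ITGA4, for example, are among the other integrin subunits below. All 10 were present among the 58051 genes of the deposited table: the α subunits ITGA1, ITGA2, ITGA5, ITGA10 and ITGAV, and the β subunits ITGB1, ITGB3, ITGB5, ITGB6 and ITGB8. The cells were MDA-MB-231, an established human triple-negative breast cancer line with a mesenchymal appearance, wild type in genotype. They were stained with FITC-conjugated recombinant human FABP4, a fatty acid binding protein that adipocytes secrete, and separated on a flow cytometer into cells that bound it and cells that did not. RNA of 3 libraries from FABP4 binding cells and 3 from FABP4 non-binding cells was sequenced after ribosomal RNA depletion. Both groups come from 1 line and both were stained and sorted, so neither is an unstained control, and the labels do not say whether replicates are separate cultures or separate sorts. The p-values therefore reflect how far these libraries scatter, and that scatter may be technical.

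Integrins are cell surface receptors made of 1 α and 1 β chain. They bind the matrix outside the cell and, through the short cytoplasmic tail of the β chain, talin, kindlin and the actin skeleton inside it. ITGB1 (β1) is the partner shared by the collagen receptors α1β1, α2β1 and α10β1 and by the main fibronectin receptor α5β1. ITGAV (αV) pairs with β1, β3, β5, β6 or β8. Its pairs read RGD in fibronectin, vitronectin and the latent form of TGF-beta. In breast cancer cells these receptors are known for adhesion, spreading, migration and growth factor crosstalk.

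The β tails are the parts that meet talin and kindlin inside the cell, and the ITGB1 tail also bears on how its reads can be counted, as described below. The last 90 coding bases before the stop codon of 1 GENCODE release 29 transcript per gene are given 5′ to 3′, with the codons of each Asn-Pro-x-Tyr (NPxY) motif, where talin and other tail-binding proteins dock, in capitals.
ITGB1: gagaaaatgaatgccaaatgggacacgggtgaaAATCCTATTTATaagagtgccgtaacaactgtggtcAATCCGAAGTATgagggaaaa
ITGB3: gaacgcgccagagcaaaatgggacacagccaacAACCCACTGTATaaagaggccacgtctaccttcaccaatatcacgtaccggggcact
ITGB5: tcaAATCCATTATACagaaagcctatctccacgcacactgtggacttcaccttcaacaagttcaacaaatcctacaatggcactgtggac
ITGB6: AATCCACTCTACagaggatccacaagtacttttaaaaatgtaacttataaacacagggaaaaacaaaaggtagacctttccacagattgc
ITGB8: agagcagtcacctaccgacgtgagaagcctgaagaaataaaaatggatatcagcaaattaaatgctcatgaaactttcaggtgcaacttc
ITGB1 held 2 NPxY motifs in this window, which spans codons 769 to 798 of its 798. ITGB3, ITGB5 and ITGB6 each held 1, and ITGB8 held 0. With the looser Asn-x-x-Tyr spelling the count was 2 in ITGB1, ITGB3, ITGB5 and ITGB6 and 0 in ITGB8. The ligand side of the fibronectin receptors is shown by 45 coding bases of fibronectin (FN1) around its RGD, whose codons are in capitals.
FN1: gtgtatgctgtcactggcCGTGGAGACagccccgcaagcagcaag
The RGD triplet stands at codon 1524 of the 2176 in this transcript and occurs 1 time in it.

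Levels are given in TPM, a unit of transcript abundance per length in which every library has the same total. TPM divide reads by transcript length and so can be set side by side between genes. ITGB1 was the most abundant member in every library and stood above all others by a wide margin. ITGB1, ITGA5, ITGB5, ITGAV and ITGA2 had levels above 10 TPM in every library, and the remaining 5 stayed below 5 TPM in each. Of the 10 members, 7 passed the filter of at least 1 TPM in at least 3 libraries and were tested. ITGA1, ITGA10 and ITGB6 fell below it, and ITGB3 reached it in all 3 binding but not in all 3 non-binding libraries. Of the 7 tested members, 6 were higher in binding cells by limma with Benjamini-Hochberg adjustment over all 15574 genes tested (adjusted p under 0.05), against 19.6% of all tested genes. The share of all genes depends on level. With a stricter filter of 5 TPM, 5 of 5 tested members were higher, against 32.7% of the 10451 genes tested. None of the 7 was lower by limma at an adjusted p under 0.05, against 7.12% of all tested genes. None was lower at an unadjusted p under 0.05 either, against 1821 of the 15574 genes tested. In the same 6 of 7 members the lowest binding library exceeded the highest non-binding library, as it did in 38.6% of all tested genes. These shares cannot be read as a test of the set, since a gene that is low in non-binding cells reached the test only where binding cells were high.

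**Figure D1:**
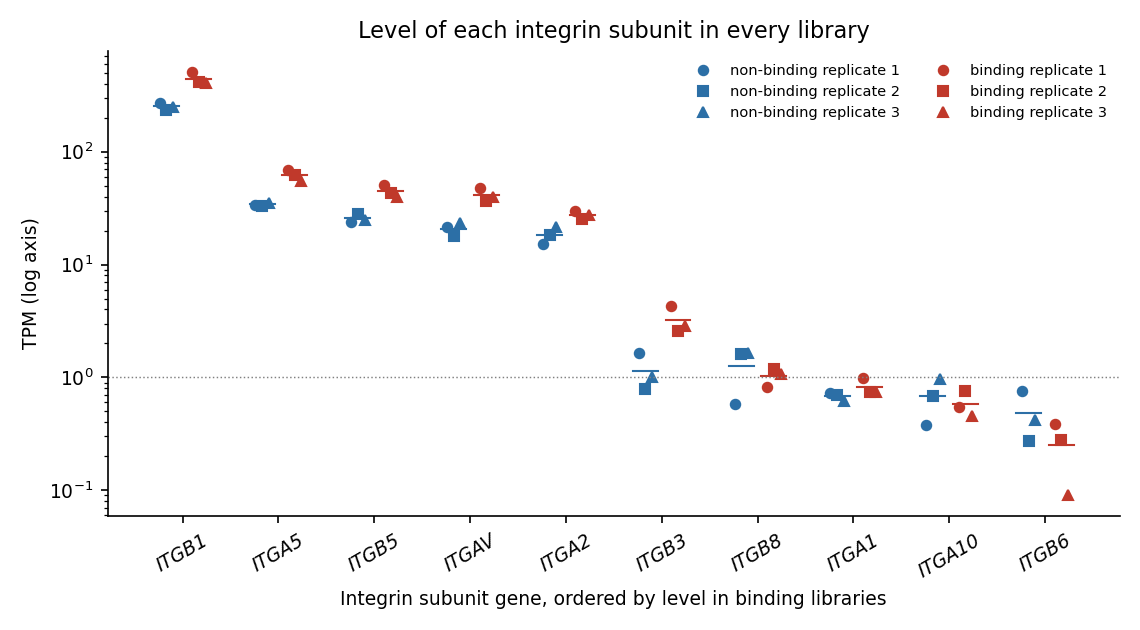
TPM on a log axis of each of the 10 integrin subunit genes in the 3 non-binding (blue) and 3 binding (red) libraries, with replicates as symbols, group means as bars and a dotted line at 1 TPM. ITGB1, ITGA5, ITGB5, ITGAV, ITGA2 and ITGB3 have every binding point above every non-binding point, while ITGB8, ITGA10 and ITGB6 overlap and ITGA1 is separated by a narrow gap under 1 TPM.

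ITGB1 (ENSG00000150093, chromosome 10, 32900319 to 33005792, minus strand, hg38) encodes the shared β1 chain. Its level was 270, 233 and 251 TPM in non-binding replicates 1, 2 and 3 and 509, 412 and 408 TPM in binding replicates 1, 2 and 3. The groups did not overlap, and binding replicate 1 stood highest. The binding mean was 443 ± 57.2 TPM and the non-binding mean 251 ± 18.6 TPM (SD, n = 3 per group), a ratio of 1.76. On the log2(TPM + 1) scale, which is used for all changes and understates those of low genes, ITGB1 was higher by 0.81 (SE 0.13; limma, Benjamini-Hochberg adjusted p = 0.0136). The median change of all tested genes was 0.36 on the same scale, so ITGB1 lay 0.45 above it.

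Reads of ITGB1 can also match a processed pseudogene, ITGB1P1 (ENSG00000269378, chromosome 19, 14621634 to 14622242, minus strand), which was looked at after its values were seen. Its 609 bases were identical, with 0 mismatches, to positions 1851 to 2459 of the 3640-base ITGB1 transcript, whose coding sequence runs from 66 to 2462. The ITGB1 tail printed above therefore occurs in both genes. ITGB1P1 was listed at 167, 138 and 146 TPM in the non-binding libraries and at 62.7, 101 and 93.5 TPM in the binding libraries, the opposite order to ITGB1 and with no overlap. Its change was -0.83 (SE 0.19; limma, Benjamini-Hochberg adjusted p = 0.0242), and it no longer passed without any 1 of non-binding replicates 1, 2 or 3 (adjusted p 0.0605 to 0.0676) or with no filter on low values (0.0501). The ratio of ITGB1P1 to ITGB1 was 0.584 to 0.616 in non-binding and 0.123 to 0.245 in binding libraries. Reads from the shared stretch cannot be assigned to 1 of the genes by sequence, so both levels are uncertain. Adding the ITGB1P1 level to ITGB1 in proportion to transcript length, an alternative chosen after seeing the data, raised ITGB1 by 9.77% to 10.3% in non-binding and by 2.06% to 4.09% in binding libraries. ITGB1 was then higher by 0.72 (SE 0.13; limma, Benjamini-Hochberg adjusted p = 0.0155). A long noncoding RNA on the opposite strand, ITGB1-DT, shares 46948 bases with the ITGB1 span but was listed at no more than 4.99 TPM. Whether the counting used strand is not given in the sources used here.

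ITGA5 (ENSG00000161638, chromosome 12, 54395261 to 54419460, minus strand) encodes α5, which pairs with β1 in the main fibronectin receptor. Its level was 33.5, 33.3 and 35.3 TPM in the non-binding libraries and 68.6, 61.7 and 54.8 TPM in the binding libraries. The non-binding libraries were close to each other and all lay below the lowest binding library. The binding mean of 61.7 ± 6.91 TPM was 1.81 times the non-binding mean of 34.0 ± 1.09 TPM (SD, n = 3 per group). This was a change of 0.83 (SE 0.14; limma, Benjamini-Hochberg adjusted p = 0.0136). Fibronectin itself, the ligand whose RGD is printed above, averaged 55.6 ± 1.66 TPM where FABP4 bound and 29.7 ± 4.72 TPM where it did not, a change of 0.89 (limma, Benjamini-Hochberg adjusted p = 0.0141).

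ITGAV (ENSG00000138448, chromosome 2, 186590065 to 186680901, plus strand) encodes αV. Its level was 21.4, 17.9 and 23.1 TPM in non-binding and 47.2, 36.7 and 39.8 TPM in binding libraries, with no overlap. Means were 41.2 ± 5.39 and 20.8 ± 2.66 TPM (SD, n = 3 each), the largest ratio, 1.98, among the 5 members above 10 TPM. The change was 0.95 (SE 0.17; limma, Benjamini-Hochberg adjusted p = 0.0146).

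ITGB5 (ENSG00000082781, chromosome 3, 124761948 to 124901418, minus strand) encodes β5, an αV partner that binds vitronectin. It was listed at 23.9, 28.0 and 25.1 TPM in non-binding and 50.7, 43.3 and 39.97 TPM in binding libraries. Every binding library exceeded every non-binding one, and the means were 44.7 ± 5.50 and 25.7 ± 2.11 TPM (SD, n = 3 each). The change was 0.77 (SE 0.15; limma, Benjamini-Hochberg adjusted p = 0.0178).

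ITGB3 (ENSG00000259207, chromosome 17, 47253846 to 47311816, plus strand) encodes β3, the αV partner known from platelets, osteoclasts and invasive tumours. It was a low gene, at 1.64, 0.787 and 1.00 TPM in non-binding and 4.29, 2.58 and 2.88 TPM in binding libraries. Means were 3.25 ± 0.915 and 1.14 ± 0.442 TPM (SD, n = 3 each), and the groups did not overlap. The change was 0.99 (SE 0.30; limma, Benjamini-Hochberg adjusted p = 0.0451), and 1.45 with a pseudocount of 0.1 in place of 1. The 5 platelet and megakaryocyte markers stayed under 1 TPM each, and their sum, like ITGB3, was higher in binding libraries: 0 to 0.159 TPM in non-binding and 0.754 to 2.08 TPM in binding libraries. ITGA2B, the platelet partner of β3, was at 0.144, 0 and 0.159 TPM in non-binding and 0.358, 0.322 and 0.207 TPM in binding libraries. GP1BA was listed at 0 in all non-binding libraries and at 0.397, 0.238 and 0.920 TPM in the binding ones, and PF4 at 0 in 4 libraries and at 0.986 and 0.952 TPM in binding replicates 2 and 3. The defining genes GP9 and PPBP were listed at 0 in all 6 libraries. The part of platelet transcripts in the ITGB3 level was not tested.

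ITGB8 (ENSG00000105855, chromosome 7, 20330702 to 20415754, plus strand) encodes β8, an αV partner that binds latent TGF-beta and lacks the tail motif printed above. It was listed at 0.580, 1.60 and 1.63 TPM in non-binding and 0.818, 1.18 and 1.06 TPM in binding libraries, so the groups overlapped. The change was -0.13 (SE 0.34; limma, Benjamini-Hochberg adjusted p = 0.774), which did not pass. ITGB6 (ENSG00000115221, chromosome 2, 160099666 to 160200313, minus strand), the epithelial αV partner β6, was below the filter at 0.754, 0.272 and 0.417 TPM against 0.390, 0.281 and 0.0905 TPM, and its groups overlapped too.

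The collagen receptors differed widely in level. ITGA2 (ENSG00000164171, chromosome 5, 52989326 to 53094779, plus strand) encodes α2 of the fibrillar collagen receptor α2β1. Its level was 15.3, 18.4 and 21.5 TPM in non-binding and 29.7, 25.5 and 27.3 TPM in binding libraries. The groups did not overlap, but the gap between the highest non-binding and lowest binding library was narrower than for ITGB1, ITGA5, ITGAV or ITGB5. Means were 27.5 ± 2.15 and 18.4 ± 3.14 TPM (SD, n = 3 each), a change of 0.57 (SE 0.17; limma, Benjamini-Hochberg adjusted p = 0.0461). ITGA1 (ENSG00000213949, chromosome 5, 52787896 to 52959210, plus strand), the α1 chain of a basement membrane collagen receptor, lies 30115 bases before ITGA2 on the same strand. It stayed below 1 TPM throughout, at 0.732, 0.698 and 0.618 TPM in non-binding and 0.989, 0.738 and 0.744 TPM in binding libraries, with a gap between the groups far smaller than the range within them. PELO, a gene of ribosome rescue whose span shares 16107 bases of the ITGA1 span on the same strand, was listed at 14.5 to 28.4 TPM, and reads in the shared bases make the low ITGA1 value uncertain. ITGA10 (ENSG00000143127, chromosome 1, 145891208 to 145910189, minus strand), the cartilage collagen receptor chain α10, was at 0.379, 0.684 and 0.978 TPM against 0.550, 0.754 and 0.455 TPM, with overlap. Tested without the filter, ITGA1 (0.11), ITGA10 (-0.07) and ITGB6 (-0.23) did not pass in limma. That fit also ended the calls of ITGA2 and ITGB3 (limma, Benjamini-Hochberg adjusted p 0.0781 and 0.105), leaving 4 of 10 members higher, against 5.12% of all genes tested in it.

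Ordered by level in binding cells, ITGB1 stood first, then ITGA5, then ITGB5 and ITGAV, whose libraries overlapped each other, then ITGA2, ITGB3 and the low members. ITGB8 overlapped ITGA1, and ITGA1 overlapped ITGA10, with ITGB6 lowest. In non-binding cells the order began ITGB1, ITGA5, ITGB5, and then ITGAV and ITGA2 overlapped, as did ITGB8 and ITGB3.

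The size of each change depended on how libraries were brought to a common scale. Without rescaling, the median of all tested genes lay at 0.36. After each library was shifted to a common median it lay at 0.04, and 4 of 7 members were higher by limma, against 6.18% of all tested genes, and 0 lower, against 12.1%. These were ITGAV at 0.64, ITGA5 at 0.52, ITGB1 at 0.49 and ITGB5 at 0.45 (limma, Benjamini-Hochberg adjusted p 0.0227, 0.0264, 0.0258 and 0.0497). ITGB3 at 0.67 (limma, Benjamini-Hochberg adjusted p = 0.115) and ITGA2 at 0.25 (adjusted p = 0.289) no longer passed. After quantile normalization 3 of 7 were higher, against 7.69% of all tested genes, and 0 lower, against 8.0%. These were ITGB1 at 0.88, ITGAV at 0.66 and ITGA5 at 0.61 (limma, Benjamini-Hochberg adjusted p 0.0164, 0.0252 and 0.0242), while ITGB5 at 0.49 had an adjusted p of 0.0528. No member was lower at an unadjusted p under 0.05 in limma under either scaling. Of all 15574 genes tested, 3212 were lower at that threshold with a common median and 2696 after quantile normalization. Every tested member kept its direction under both.

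**Figure D2:**
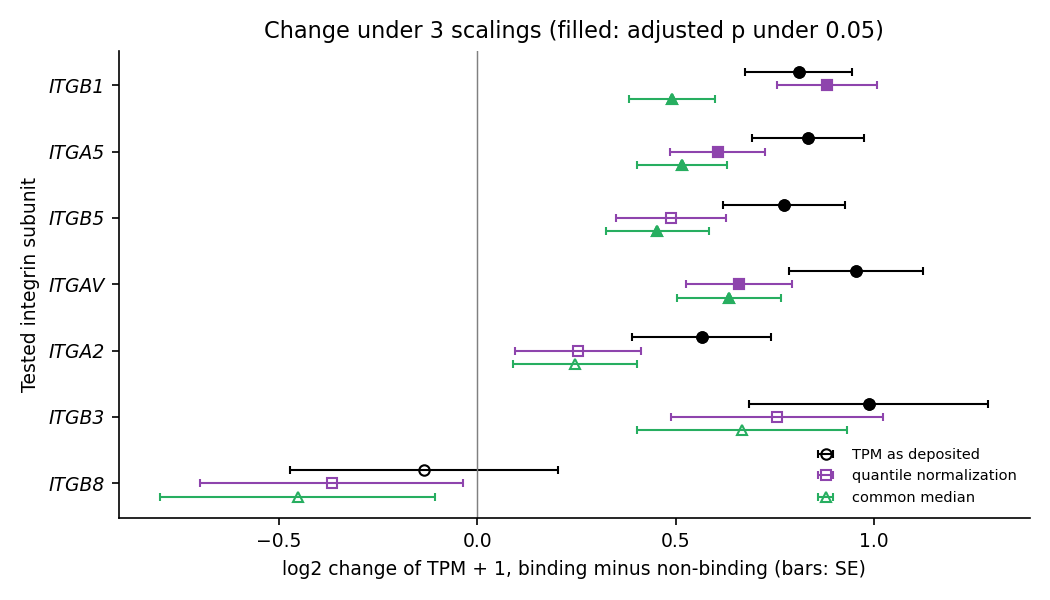
Change in log2(TPM + 1), binding minus non-binding, of the 7 tested integrin subunits on the horizontal axis, with bars for the SE, under the deposited scale, quantile normalization and a common median. Filled symbols mark an adjusted p under 0.05 in limma: 6 genes as deposited, 3 after quantile normalization and 4 with a common median, with ITGB8 left of 0 in each.

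With only 3 libraries a group, single libraries decided calls. Without non-binding replicate 2, 0 of 7 members passed in limma (Benjamini-Hochberg adjusted p 0.0518 to 0.110 for the 6 that had), and without non-binding replicate 3 likewise 0 passed (0.0523 to 0.102). Of all tested genes, 2.17% and 0.995% were higher in those fits. The same 6 kept an unadjusted p under 0.05 in each of those fits. At that unadjusted threshold 4000 of all 15128 genes tested were higher when non-binding replicate 2 was dropped. The number was 4189 of 15081 when replicate 3 of that group was dropped. Without non-binding replicate 1, or any 1 of the 3 binding libraries, 4 of 7 passed, namely ITGB1, ITGA5, ITGAV and ITGB5. The share of all tested genes that were higher was 10.6% without non-binding replicate 1 and 13.5%, 14.0% and 11.9% without binding replicates 1, 2 and 3. ITGA2 and ITGB3 lost the call in all 6 of these fits.

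**Figure D3:**
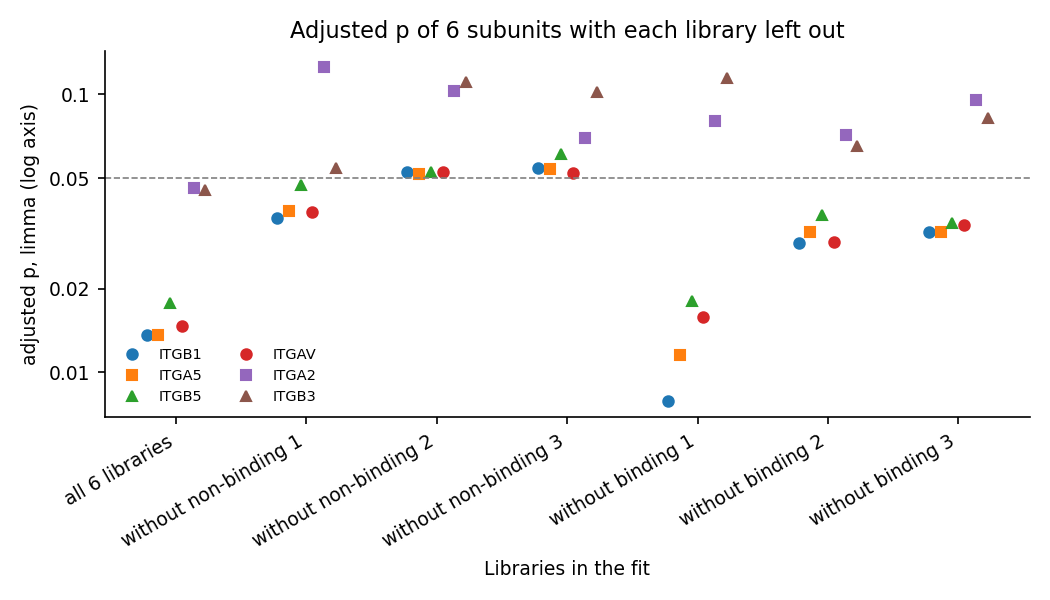
Adjusted p in limma (log axis) of ITGB1, ITGA5, ITGB5, ITGAV, ITGA2 and ITGB3 with all 6 libraries and with each library left out, with a dashed line at 0.05. All 6 genes lie above the line without non-binding replicate 2 or 3, and only ITGA2 and ITGB3 lie above it in the other 4 fits with a library left out.

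Ratios of TPM between subunits within a library are unaffected when a whole library is multiplied by 1 factor, although quantile normalization does change them. ITGB1 exceeded ITGA5 by 7.18 ± 0.437 times in binding and 7.39 ± 0.584 times in non-binding libraries (SD, n = 3 each). The ratio of ITGB1 to ITGAV was 10.8 ± 0.483 and 12.2 ± 1.17, and ITGB5 over ITGAV was 1.09 ± 0.0886 and 1.26 ± 0.269. ITGB1 over ITGA2 was 16.1 ± 1.08 and 14.03 ± 3.25. The means farthest apart were those of ITGB5 over ITGB3, at 14.2 ± 2.51 in binding and 25.1 ± 10.5 in non-binding libraries. All of these ranges overlapped between the groups, with ITGB1 taken as listed and the ITGB1P1 level left out. Adding that level by length would raise the ITGB1 ratios more in non-binding than in binding libraries. The overlap of those ratios is therefore stated only for ITGB1 as listed. Among the αV-specific partners, ITGB5 supplied 90.8% ± 0.631 of the summed ITGB3, ITGB5, ITGB6 and ITGB8 TPM in binding and 89.8% ± 1.33 in non-binding libraries. The ITGB3 share was 6.54% ± 1.10 against 4.07% ± 1.81, with overlap. The ITGB6 share was 0.498% ± 0.258 against 1.72% ± 0.982, with every binding library below every non-binding one, on values under 1 TPM. Among the 5 member α chains, ITGA5 made up 46.8% ± 2.35 and 45.8% ± 2.14, ITGAV 31.2% ± 1.69 and 27.9% ± 2.44, and ITGA2 20.9% ± 1.10 and 24.6% ± 2.76 in binding and non-binding libraries, each with overlap. The ITGA10 share was 0.448% ± 0.133 and 0.898% ± 0.338, with overlap. The ITGA1 share was 0.622% ± 0.0444 in binding and 0.923% ± 0.144 in non-binding libraries. Every binding library lay below every non-binding one in it, on ITGA1 values under 1 TPM. These are shares of RNA and say nothing of which pairs reach the surface.

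The 10 members were set against the 16 other integrin subunit genes in the table. Summed, the members gave 624 ± 76.6 TPM in the binding group and 355 ± 17.6 TPM in the other (SD, n = 3 per group). All 26 subunits gave 1318 ± 88.7 and 667 ± 6.89 TPM. The members' share of all integrin transcripts was 54.7%, 50.3% and 54.6% in the non-binding libraries and 50.2%, 46.6% and 44.9% in the binding libraries. Each binding library lay below each non-binding one, narrowly at the closest pair (50.2% and 50.3%). ITGB4, the β4 chain of the hemidesmosome receptor, made up 25.3% ± 4.35 of the total in binding and 17.9% ± 2.45 in non-binding libraries, with overlap. Of the other subunits 8 were tested and 3 were higher in limma, against 19.6% of all tested genes, and none was lower: ITGB4 at 331 ± 39.4 against 119 ± 16.3 TPM, ITGA3 at 235 ± 31.5 against 112 ± 1.00 TPM and ITGA6 at 98.8 ± 13.8 against 56.4 ± 6.16 TPM (changes 1.47, 1.05 and 0.79; limma, Benjamini-Hochberg adjusted p 0.00486, 0.00915 and 0.0167). All 3 are chains of laminin receptors: α3 pairs with β1, and α6 with β1 or β4. ITGB4, ITGA3 and ITGA6 passed under both other scalings. ITGA11 and ITGA4, chains of a collagen and a fibronectin receptor that are not among the members, did not pass. Their changes were 0.002 and -0.40 (limma, Benjamini-Hochberg adjusted p 0.997 and 0.274). ITGA4 was at 2.12, 1.97 and 1.90 TPM in non-binding and 1.00, 1.36 and 1.46 TPM in binding libraries, with no overlap.

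**Figure D4:**
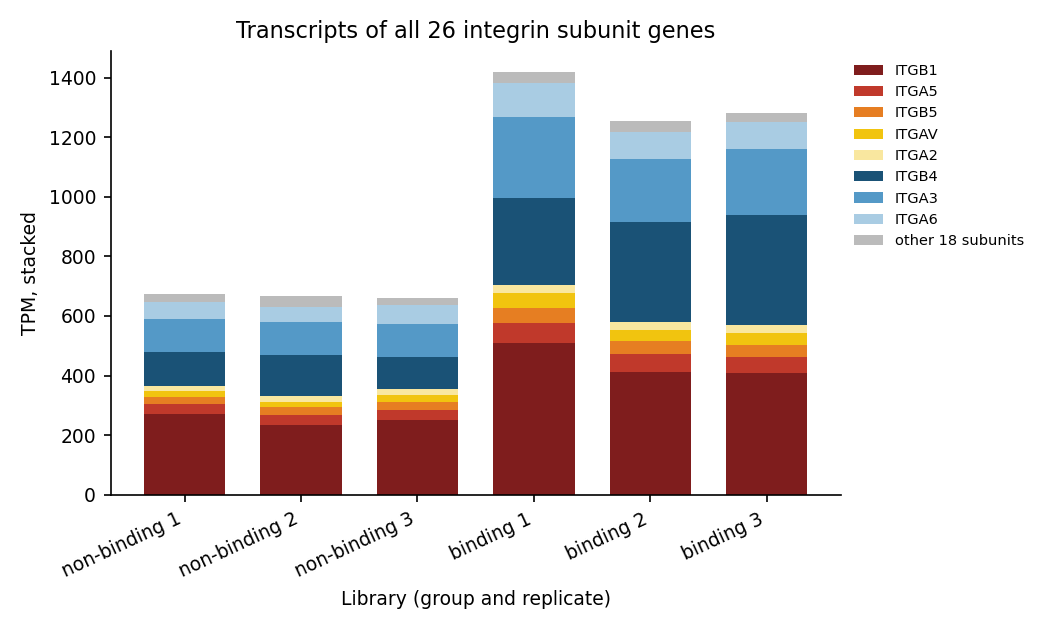
TPM of all 26 integrin subunit genes stacked for each library, with 5 members in red to yellow, the laminin-binding ITGB4, ITGA3 and ITGA6 in blue and the other 18 in grey. Bars reach 660 to 674 TPM in the non-binding and 1254 to 1419 TPM in the binding libraries, and the ITGB4 segment widens along with the members.

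Matrix ligands of these receptors were read from lists named for their function. Of 9 tested collagen chains, 3 were higher, against 19.6% of all tested genes, and none was lower: COL5A1 at 46.8 ± 7.61 against 18.6 ± 3.43 TPM, and the basement membrane chains COL4A1 at 26.8 ± 7.47 against 11.7 ± 1.76 TPM and COL4A2 at 68.8 ± 17.8 against 33.3 ± 5.11 TPM (changes 1.29, 1.10 and 1.00; limma, Benjamini-Hochberg adjusted p 0.0124, 0.0188 and 0.0191). Their median change was 0.38, near the 0.36 of all tested genes. Of 12 tested RGD and fibronectin-type ligands (18 listed), 8 were higher, against 19.6% of all tested genes, and none lower, with a median of 0.93. TGFB1, whose latent peptide carries an RGD read by αV integrins, stood at 142 ± 6.09 against 70.2 ± 4.67 TPM, a change of 1.00 (limma, Benjamini-Hochberg adjusted p = 0.00877). EDIL3, a secreted αV ligand, stood at 88.4 ± 16.4 against 36.3 ± 3.44 TPM and thrombospondin 1 (THBS1) at 71.0 ± 13.99 against 31.7 ± 4.13 TPM (changes 1.25 and 1.13; limma, Benjamini-Hochberg adjusted p 0.00996 and 0.0136). Vitronectin (VTN), the classical αV ligand, was listed at 0 in all libraries. Under both other scalings 3 collagen chains and 6 RGD ligands were higher, against 6.18% and 7.69% of all genes, and none was lower.

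Of 17 tested genes that switch integrins on or off or carry their signal, 4 were higher, near the 19.6% of all tested genes, and 1 was lower, near the 7.12% of all. Their median change was 0.32, against 0.36 for all. SHARPIN, which holds β1 integrins inactive, was at 39.4 ± 4.89 against 20.2 ± 1.13 TPM, and filamin A (FLNA), which competes with talin for β tails, at 613 ± 143 against 323 ± 27.6 TPM (changes 0.92 and 0.90; limma, Benjamini-Hochberg adjusted p 0.0136 and 0.0164). The activator kindlin-2 (FERMT2) and the kinase-like adaptor ILK were the other 2 that passed upward (changes 0.67 and 0.74; limma, Benjamini-Hochberg adjusted p 0.0388 and 0.0374). RAP1A, the small GTPase that recruits talin, was lower, at 168 ± 31.1 against 255 ± 22.1 TPM (change -0.61; limma, Benjamini-Hochberg adjusted p = 0.0325). A common median left 2 higher and 1 lower (6.18% and 12.1% of all genes), and quantile normalization left 2 higher and none lower (7.69% and 8.0% of all), RAP1A then having an adjusted p of 0.0714 in limma.

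Of 17 tested genes of integrin endocytosis and recycling, 3 were higher and 1 was lower, shares again near those of all tested genes (19.6% and 7.12%). Their median change was 0.26, below that of all genes. Caveolin 1 (CAV1) stood at 154 ± 48.1 against 76.6 ± 2.85 TPM and HAX1, which binds the β6 tail, at 169 ± 36.6 against 96.8 ± 9.0 TPM (changes 0.95 and 0.78; limma, Benjamini-Hochberg adjusted p 0.0206 and 0.0215). NUMB, an endocytic adaptor, was the third (0.60; limma, Benjamini-Hochberg adjusted p = 0.0409). RAB25, the GTPase that recycles α5β1, was lower at 7.27 ± 2.25 against 18.01 ± 6.29 TPM (-1.17; limma, Benjamini-Hochberg adjusted p = 0.0317). A common median gave 2 higher and 3 lower (6.18% and 12.1% of all genes), and quantile normalization 2 higher and 2 lower (7.69% and 8.0% of all). Of 14 tested tetraspanins and other surface partners, 9 were higher, against 19.6% of all tested genes, and none lower (median 0.83). Under the common median and quantile normalization 7 were higher, against 6.18% and 7.69% of all. Basigin (BSG) stood at 793 ± 72.3 against 351 ± 30.7 TPM, galectin 1 (LGALS1) at 2675 ± 356 against 1373 ± 81.5 TPM and the urokinase receptor PLAUR at 79.5 ± 7.71 against 40.7 ± 5.46 TPM (changes 1.17, 0.96 and 0.95; limma, Benjamini-Hochberg adjusted p 0.00595, 0.011 and 0.0135). The 6 lists, in the order given from other subunits to surface partners, held 8, 9, 12, 17, 17 and 14 tested genes. Without non-binding replicate 2 the numbers higher in them were 2, 1, 2, 1, 0 and 4, against 2.17% of all tested genes. Without non-binding replicate 3 they were 2, 0, 3, 0, 0 and 1, against 0.995% of all tested genes.

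Genes whose profile over the 6 libraries was most like a member's were sought among 5349 genes with a mean of at least 20 TPM, by the root mean square difference of centred log2(TPM + 1) values. Nearest to ITGB1 were LLGL1, TPD52 and FLOT2, at differences of 0.0275, 0.0289 and 0.0336. Nearest to ITGAV were TTC19, PLBD2 and TAF7, at 0.0409, 0.0412 and 0.0470. Because they were picked for likeness to genes higher in binding libraries, all of these genes also had a higher mean there.

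Because most abundant members were higher together, their upstream sequence was read for common elements. RefSeq windows (GRCh38.p14) of the 250 bases before the RefSeq start were found for 9 of the 10 members, all but ITGB3. That start lay 194 bases from a GENCODE start for ITGA5, 139 for ITGA10, 223 for ITGB8 and at most 68 for the others. Most of the ITGA5 and ITGB8 windows and all of those of ITGB1 and ITGB5 lay within the gene spans given above. A GC box, spelled GGGCGG and searched on both strands, occurred in 5 of the 9 windows (ITGB1, ITGA2, ITGA5, ITGB5 and ITGB8), against 42.6% of 35116 windows of the same length. The members with a box include ITGB8, which was not higher, and those without include ITGAV, which was. An AP-1 site, TGANTCA, and a TATA box, TATAAA, each occurred in 0 of the 9 windows, against 6.57% and 10.7% of all windows. The windows of ITGB1 (chr10:32958231-32958480, minus strand) and ITGB5 (chr3:124887366-124887615, minus strand), the 2 member β chains of highest level, are given 5′ to 3′ with their GC boxes in capitals.
ITGB1: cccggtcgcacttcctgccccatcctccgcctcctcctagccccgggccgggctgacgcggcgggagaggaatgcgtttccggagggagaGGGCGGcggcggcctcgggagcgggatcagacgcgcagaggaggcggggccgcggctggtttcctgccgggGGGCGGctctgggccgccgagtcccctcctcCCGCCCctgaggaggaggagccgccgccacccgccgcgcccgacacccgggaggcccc
ITGB5: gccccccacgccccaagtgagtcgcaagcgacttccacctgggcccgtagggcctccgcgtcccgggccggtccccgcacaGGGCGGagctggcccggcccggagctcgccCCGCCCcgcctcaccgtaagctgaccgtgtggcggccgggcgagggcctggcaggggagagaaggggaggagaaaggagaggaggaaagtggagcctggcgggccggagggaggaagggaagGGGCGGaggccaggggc
Each held 3 boxes, and 78.4% and 75.2% of their bases were G or C, against a median of 58.0% over all windows. A match is a description of letters in the window and not a binding site.

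Levels of cell type markers and library composition are given beside these results, since some of them differed between the groups. The libraries held 15300 to 15945 genes at 1 TPM or more. Of the 8 listed markers of MDA-MB-231 and mesenchymal cells 6 were higher in binding cells, against 19.6% of all tested genes. These were CD44, AXL, CAV1, LGALS1 and the keratins KRT8 and KRT18, and CAV1 and LGALS1 are on lists above too. Vimentin (VIM) and S100A4 did not pass, at changes of 0.16 and -0.22, below the median of 0.36 of all tested genes. The sum of the 8 ran from 2758 to 2904 TPM in non-binding and 4460 to 5422 TPM in binding libraries. Of the 6 luminal breast markers, ESR1 was listed at 0 in all libraries and PGR stayed at or below 0.0573 TPM. GATA3 (9.90 to 16.9 TPM), FOXA1 (3.26 to 6.28 TPM) and ERBB3 (2.98 to 4.71 TPM) were present in every library and did not pass. TFF1 was higher in binding cells, at 5.32 ± 2.03 against 2.02 ± 0.760 TPM (SD, n = 3 per group; limma, Benjamini-Hochberg adjusted p = 0.0487). It did not pass under the common median or quantile normalization (limma, Benjamini-Hochberg adjusted p 0.140 and 0.114). Of 14 epidermal keratinocyte markers, 8 were lower in binding cells, against 7.12% of all tested genes, and none higher by limma. Their sum was 4114 to 5804 TPM in non-binding and 1828 to 3441 TPM in binding libraries, 10 of the 14 had every binding library below every non-binding one, against 13.6% of all tested genes, and none of the 14 was at 0 in all libraries. Transcripts of the mitochondrial genome made up 2.98% to 3.38% of non-binding and 9.99% to 11.2% of binding TPM. The part of these shifts in the integrin changes was not tested. With mitochondrial transcripts removed and the rest rescaled, 6 of 7 members were higher, against 28.4% of all tested genes, whose median change was then 0.45. In bulk RNA, a different number of cells of a type and a different amount of RNA per cell cannot be told apart. Leukocyte markers summed to 27.6 to 43.1 TPM in non-binding and 34.8 to 50.2 TPM in binding libraries, endothelial markers to 2.68 to 3.75 and 1.23 to 3.25 TPM, and fibroblast markers to 33.3 to 58.6 and 26.8 to 61.4 TPM, with overlap in each.

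**Figure D5:**
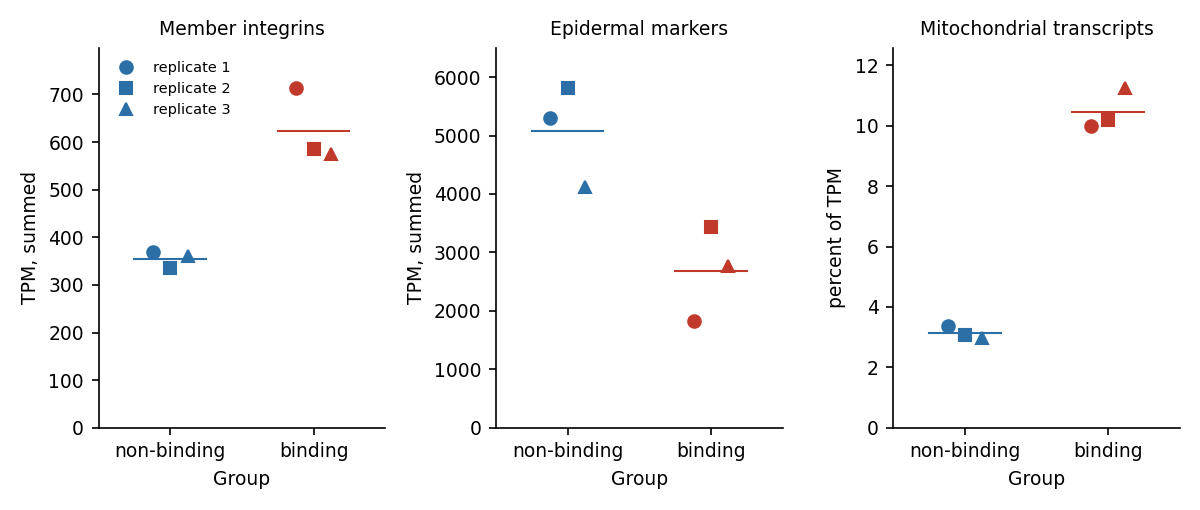
Summed TPM of the 10 integrin subunits, summed TPM of 14 epidermal keratinocyte markers and the percent of TPM from mitochondrial transcripts, in each non-binding (blue) and binding (red) library, with replicates as symbols and means as bars. The integrin sum runs from 335 to 369 TPM in non-binding and from 575 to 712 TPM in binding libraries, the epidermal sum is lower and the mitochondrial percent higher in all binding libraries.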

How the data were processed

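The deposited table holds TPM for 58051 genes in 6 libraries, and each column sums to 1000000, so no depth is kept and no counting interval was computed. The authors sequenced rRNA-depleted total RNA, per the labels' protocols, with hg38 as the genome build, per the submitters' processing notes. Which aligner, quantifier and annotation were used is not given in the sources at hand. The 15574 genes reaching 1 TPM in 3 or more libraries were tested as log2(TPM + 1) in limma 3.58.1 (R 4.3.3) with an intensity trend, 3 binding against 3 non-binding libraries, no covariate and Benjamini-Hochberg adjustment at 0.05. The fit was tried on simulated data with changes larger than those of the members, placed only in genes of higher level and with no overall shift. That trial does not cover small changes or low genes. The members and lists were chosen with earlier results of these data known. From each related list the 3 tested genes with the smallest p are named, and for ITGB1 and ITGAV the 3 nearest profiles. Of the table's identifiers 99% were in GENCODE release 29, which gave coordinates, transcripts and coding ends, and which may not be the authors' annotation. Promoter windows come from RefSeq. Alternatives were other pseudocounts, filters and scalings, removal of mitochondrial transcripts, a replicate block and leaving out each library.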

Additional observations from a re-analysis of the deposited data

How the results depend on the processing

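No tested member changed direction under any alternative run. Members higher in binding cells numbered 6 as reported, 3 after quantile normalization and 0 to 4 with 1 library left out. All genes higher numbered 3047 as reported, 1373 with no filter on low values, 962 with a common median, 1197 after quantile normalization and 150 to 2097 with 1 library left out. All genes lower numbered 1109 as reported, 500 with no filter, 1890 with a common median and 36 to 930 with 1 library left out. Of the 77 tested genes in related lists, 30 were higher and 2 lower as reported, against 19.6% and 7.12% of all tested genes. Leaving out 1 library gave 6 to 29 higher, against 0.995% to 14.0% of all genes tested in those fits, and 0 to 2 lower. No filter gave 0 lower, against 500 of all 26817 genes tested in it, and a common median 4 lower, against 12.1%. Over the alternatives, the log2 change ran from 0.49 to 0.92 for ITGB1, 0.52 to 0.95 for ITGA5, 0.64 to 1.07 for ITGAV, 0.45 to 0.88 for ITGB5, 0.25 to 0.68 for ITGA2, 0.67 to 1.45 for ITGB3 and -0.45 to -0.01 for ITGB8. Adjusted p in limma ran from 0.00791 to 0.0545 for ITGB1, 0.00866 to 0.0541 for ITGA5, 0.00901 to 0.0525 for ITGAV, 0.0101 to 0.0608 for ITGB5, 0.0236 to 0.289 for ITGA2, 0.0305 to 0.115 for ITGB3 and 0.376 to 0.990 for ITGB8. Nothing in the labels says that same-numbered libraries are pairs, so the numbers were not taken as pairs. Deviations from group means in same-numbered libraries had r = 0.035, -0.017 and 0.028. With 3 libraries a group these values cannot exclude pairing. With a replicate block 5 of 7 members were higher, ITGA2 being lost (limma, Benjamini-Hochberg adjusted p = 0.0608), and 3174 genes were higher and 1132 lower. Fits without a library rest on fewer libraries, and the cause of the other shifts was not tested.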

Other observations

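The matricellular integrin ligands CCN1 and CCN2 varied between libraries of a group. CCN1 was at 312, 940 and 257 TPM in non-binding replicates 1, 2 and 3 and at 3262, 245 and 265 TPM in binding replicates 1, 2 and 3. CCN2 was at 215, 253 and 227 TPM in non-binding and 946, 318 and 294 TPM in binding libraries. Binding replicate 1, the library highest in ITGB1, ITGA5, ITGAV, ITGB5, ITGA2 and ITGB3, thus also stood far above the others in CCN1 and CCN2. Osteopontin (SPP1), another RGD ligand, was at 2.41, 16.4 and 0.761 TPM in non-binding and 0.428, 0.513 and 0.248 TPM in binding libraries. Every binding library thus lay below every non-binding one, but SPP1 fell below the filter and was not among the ligands tested. The low leukocyte subunit ITGB7 was at 3.28 TPM in non-binding replicate 2 and at most 0.178 TPM elsewhere. These genes were named after their values were seen.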
